A study of Mus musculus with 6 samples.

Results

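The genes described here are 8 that encode junction proteins of brain endothelium, the cells that line blood vessels: Cldn5, Ocln, Tjp1, F11r, Jam2, Esam, Cdh5 and Pecam1. They were chosen by symbol as parts of tight and adherens junctions, by a rule that uses no measured value but with earlier results of these data known, and are 8 of the 18283 genes in the deposited table. The samples were cortex of mice with a WT genotype, injected with AAV-GFP-GA (3 libraries) or AAV-GFP (3 libraries), and the labels give 5 months as the time for each. AAV stands for adeno-associated virus, used here as a vector. GFP-GA is green fluorescent protein fused to poly-GA, a glycine-alanine dipeptide repeat protein made from the expanded C9orf72 repeat of amyotrophic lateral sclerosis and frontotemporal dementia, and GFP alone is the control cargo. Both groups thus received a viral vector and GFP. The promoter and serotype of the vector, the age and sex of the animals and whether tissue was pooled are not stated in the labels, and a library is not stated to be 1 animal, so the p-values measure only the spread between these libraries.

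Brain endothelial cells seal the gap between neighbouring cells with tight junctions, which limit passage of solutes from blood to brain and are a main part of the blood-brain barrier. Claudins and occludin span the membrane and form the strands, zonula occludens scaffolds tie them to actin, and immunoglobulin-type adhesion molecules sit beside them. Adherens junctions, built on VE-cadherin and its catenins, hold the cells together. Several of these proteins are not specific to endothelium: Tjp1 and F11r are also used by epithelia, including choroid plexus, and ZO-1, the product of Tjp1, is found in glia and neurons as well.

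The libraries held 16748754 to 17576017 expected counts, and 14324 genes were expressed highly enough to be tested, all 8 junction genes among them. Genes that mark cortical neurons were abundant, with Camk2a at 4089 CPM (a level scaled for library size) in AAV-GFP-GA cortex and 3878 CPM in AAV-GFP cortex. Some libraries stood apart. AAV-GFP replicate 3 had 1 read from Y-linked genes, against 2018 to 2270 in the others. The summed level of 24 intestinal epithelium genes was 29.7 to 38.8 CPM in the AAV-GFP-GA libraries and 31.6 CPM in AAV-GFP replicate 3, but 18.3 and 17.4 CPM in AAV-GFP replicates 1 and 2. That of 10 choroid plexus genes ranged from 84.6 to 601 CPM in AAV-GFP-GA libraries and from 286 to 1207 CPM in AAV-GFP libraries. Results are therefore also given without single libraries or with a term for the library set with more or fewer intestinal reads. Under that term the contrast rests on AAV-GFP replicate 3 as the control, the library with 1 Y-linked read. A difference by vector and one that goes with Y-linked reads cannot be told apart under it. Values of single libraries are listed in the order of replicates 1, 2 and 3 of a group.

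The comparison asks whether transcripts of the endothelial junction differ in cortex that expresses poly-GA. None of the 8 genes passed the threshold. By edgeR's quasi-likelihood test, 0 of 8 had an adjusted p under 0.05, where 3 of 14324 tested genes did (0.0209%), and DESeq2 and limma-voom also called 0 of the 8. At an unadjusted p under 0.05 there was 1, Pecam1, where 6.64% of tested genes were under it. The point estimates were positive for 6 genes and negative for Cldn5 and Ocln, with a median log2 fold change (AAV-GFP-GA over AAV-GFP) of 0.10, where 48.6% of tested genes were positive and the median was -0.0039. In the main edgeR fit, the 95% intervals of 7 of the 8 excluded changes of 1.5-fold or more both upward and downward, and that of Esam did not. Under some alternatives more intervals reached past 1.5-fold. That of Ocln went down to a log2 fold change of -0.72 without AAV-GFP-GA replicate 2, and that of Pecam1 up to 0.62 without AAV-GFP replicate 3. In whole cortex, a difference in the number of endothelial cells and one in RNA per cell cannot be told apart.

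**Figure D1:**
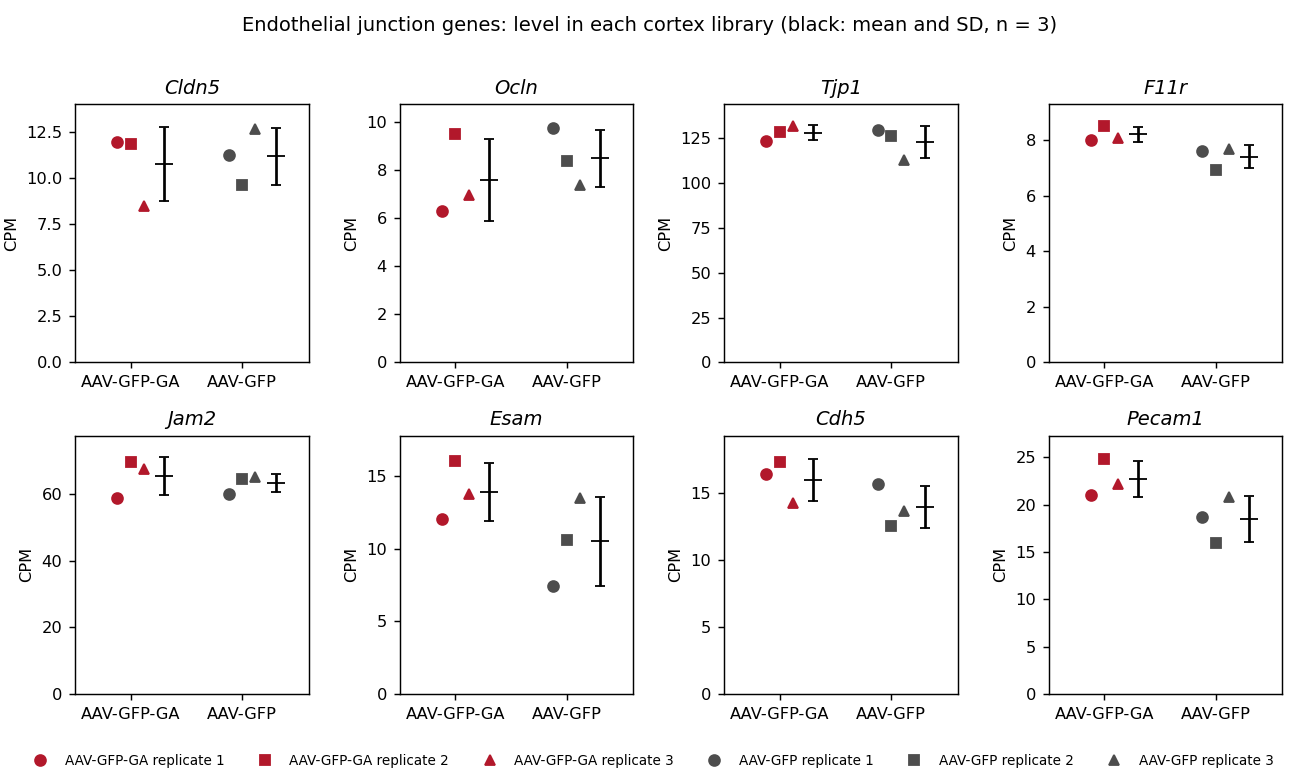
Level of each junction gene in CPM (vertical axes, from 0) in the 3 AAV-GFP-GA libraries (red) and the 3 AAV-GFP libraries (grey), with the mean and SD in black. The groups do not overlap for Pecam1 and F11r and overlap for the other 6 genes, and AAV-GFP-GA replicate 2 (red square) is highest of all libraries for 5 of the 8.

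Compared per length, the order of the genes by group mean was the same in both groups. Levels were divided by the annotated exon length (GENCODE M21 basic set, GRCm38), which the submitters may not have used. Tjp1 was highest, at 18.0 ± 0.586 CPM per kilobase in AAV-GFP-GA cortex and 17.3 ± 1.24 in AAV-GFP cortex (SD, n = 3 each). Jam2 followed, at 10.8 ± 0.953 CPM per kilobase in AAV-GFP-GA cortex and 10.5 ± 0.449 in AAV-GFP cortex. Both stood above the next gene in every library. Cldn5, Esam, Pecam1 and Cdh5 came next, with ranges over the 6 libraries that overlapped from each gene to its neighbour, although Pecam1 was above Cdh5 within every library. Cldn5 covered 5.99 to 8.97, Esam 3.98 to 8.58, Pecam1 3.86 to 6.0 and Cdh5 3.13 to 4.33 CPM per kilobase. Esam lay above Cldn5 in AAV-GFP-GA replicates 2 and 3 and below it in AAV-GFP-GA replicate 1 and all AAV-GFP libraries. F11r, at 2.75 to 3.38 CPM per kilobase, overlapped Cdh5 in range but lay below it within each library. Ocln was lowest in every library, at 1.80 ± 0.403 CPM per kilobase in AAV-GFP-GA cortex and 2.01 ± 0.281 in AAV-GFP cortex (SD, n = 3 each).

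**Figure D2:**
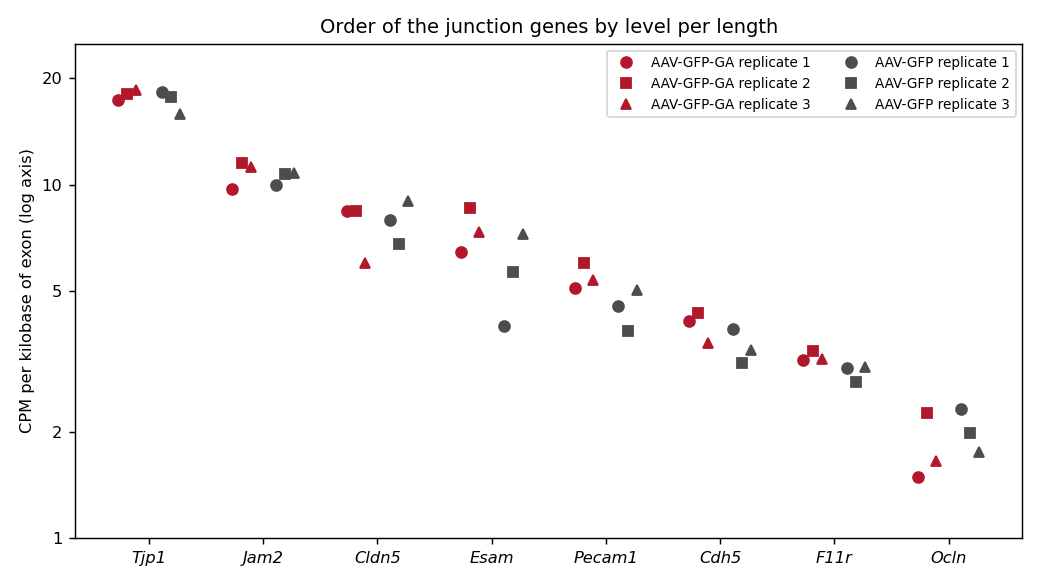
CPM per kilobase of annotated exon (vertical log axis) of each junction gene in each library, AAV-GFP-GA in red and AAV-GFP in grey, with genes ordered by their mean. Tjp1 and Jam2 stand above the rest in all 6 libraries, and Ocln, at 1.49 to 2.31 CPM per kilobase, is below F11r in all 6.

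Promoters of 4 of the 8 genes (Cldn5, Ocln, Tjp1 and F11r) were found in the RefSeq table for GRCm38.p6. Those of Cldn5, Ocln and F11r are printed, to show windows with and without matches, and that of Tjp1 is left out for length. They are given because Klf2 and Klf4, which encode Krüppel-like transcription factors that bind CACCC-type elements, were called higher in AAV-GFP-GA cortex, with log2 fold changes of 0.90 ± 0.09 and 1.18 ± 0.11 (SE) and adjusted p-values of 0.00588 and 0.00299 by edgeR. Each window runs from 250 bases before to 50 bases after a transcription start and is written along the gene's strand. Capitals mark CACCC or its reverse complement GGGTG. For Ocln the more upstream of 2 starts is shown.
Cldn5, chr16:18776597-18776896, forward strand: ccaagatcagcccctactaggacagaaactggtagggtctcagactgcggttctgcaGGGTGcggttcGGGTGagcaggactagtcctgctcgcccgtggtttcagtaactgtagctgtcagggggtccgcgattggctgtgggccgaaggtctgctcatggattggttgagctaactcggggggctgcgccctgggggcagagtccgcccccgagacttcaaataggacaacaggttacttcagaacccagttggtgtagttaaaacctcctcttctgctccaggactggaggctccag
Ocln, chr13:100552669-100552968, reverse strand: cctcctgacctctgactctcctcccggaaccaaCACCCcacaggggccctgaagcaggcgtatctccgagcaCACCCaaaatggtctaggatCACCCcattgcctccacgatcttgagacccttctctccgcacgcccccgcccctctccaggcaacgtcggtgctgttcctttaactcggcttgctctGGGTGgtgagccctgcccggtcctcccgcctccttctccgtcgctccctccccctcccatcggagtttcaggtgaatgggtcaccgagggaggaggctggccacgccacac
F11r, chr1:171437311-171437610, forward strand: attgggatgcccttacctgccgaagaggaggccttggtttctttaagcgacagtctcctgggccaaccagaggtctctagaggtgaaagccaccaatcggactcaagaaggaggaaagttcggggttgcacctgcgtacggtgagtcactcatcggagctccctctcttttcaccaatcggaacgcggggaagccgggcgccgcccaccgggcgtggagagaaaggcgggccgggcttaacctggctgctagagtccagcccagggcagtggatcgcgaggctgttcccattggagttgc
The Cldn5 window held 2 matches, both as GGGTG, and that of Ocln 4, of which 3 read CACCC. The second Ocln window held 1 match and the Tjp1 window 2, while the F11r window held 0. At least 1 match was held by 57.5% of all 32851 windows, so a match was common. These are letter matches only, and no binding was measured.

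Cldn5 and Ocln, which encode strand-forming proteins, had estimates below 0, but each was smaller than its SE and its sign turned under some alternatives. Cldn5 (Entrez gene 12741, chromosome 16, 18776847 to 18778262, mm10) encodes claudin-5, the main claudin of the blood-brain barrier. It was at 11.96, 11.9 and 8.48 CPM with AAV-GFP-GA, against 11.2, 9.62 and 12.7 CPM with AAV-GFP. The groups overlapped: the lowest library was AAV-GFP-GA replicate 3 and the highest AAV-GFP replicate 3. The estimated difference was -0.05 ± 0.15 as log2 fold change ± SE, where the 95% interval ran from 0.763-fold to 1.22-fold and the adjusted p was 0.955 by edgeR. The sign turned without replicate 3 of AAV-GFP-GA (0.09), without replicate 3 of AAV-GFP (0.05) and in limma-voom with sample weights (0.02). The lowest estimates were -0.24 with the library set term and -0.15 without replicate 2 of AAV-GFP.

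Ocln (Entrez gene 18260, chromosome 13, 100496504 to 100552718) encodes occludin, a membrane protein of the strands. It was at 6.30, 9.53 and 6.98 CPM with AAV-GFP-GA, against 9.75, 8.37 and 7.39 CPM with AAV-GFP. AAV-GFP-GA replicate 2 lay within the AAV-GFP range, and the other AAV-GFP-GA libraries lay below it. For occludin the log2 fold change was -0.16 ± 0.17 (95% interval 0.688-fold to 1.16-fold, edgeR adjusted p 0.853). Leaving out AAV-GFP-GA replicate 2 gave -0.36, leaving out AAV-GFP replicate 1 gave -0.05, and the estimate was 0.04 with the library set term. AAV-GFP replicate 1, where Ocln was highest, also had the highest choroid plexus sum, and the part of choroid plexus in the level of Ocln was not tested. Of the 8 genes Ocln had the fewest reads in a library, 110. At its mean read number counting error alone gives a coefficient of variation of 8.66% in AAV-GFP-GA and 8.34% in AAV-GFP, and the measured coefficients were 22.4% in AAV-GFP-GA and 14.0% in AAV-GFP.

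Tjp1 (Entrez gene 21872, chromosome 7, 65296165 to 65527850) encodes ZO-1, the scaffold under the strands. It was at 124, 129 and 132 CPM with AAV-GFP-GA, against 130, 126 and 113 CPM with AAV-GFP. AAV-GFP replicate 3 was lower than the other 5 libraries, which lay close together. Its log2 fold change was 0.06 ± 0.06, with the narrowest interval of the 8 in fold terms, from 0.944-fold to 1.15-fold, and an adjusted p of 0.853 by edgeR. Against AAV-GFP replicate 3 alone, with the library set term, it was 0.18, and without that library 0.0047.

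The immunoglobulin-type molecules of the junction comprised F11r, Jam2 and Esam. F11r (Entrez gene 16456, chromosome 1, 171437561 to 171464593) encodes JAM-A, which takes part in the assembly of tight junctions and is also found on platelets and leukocytes. It was at 8.01, 8.51 and 8.08 CPM with AAV-GFP-GA, against 7.60, 6.93 and 7.68 CPM with AAV-GFP. All AAV-GFP-GA libraries lay above all AAV-GFP libraries, by a narrow gap. The spread within groups was small, with a coefficient of variation of 3.31% in AAV-GFP-GA and 5.52% in AAV-GFP, which is below the 8.34% in AAV-GFP-GA and 8.93% in AAV-GFP that counting error alone gives at these read numbers. JAM-A transcripts had a log2 fold change of 0.15 ± 0.11 (95% interval 0.929-fold to 1.32-fold, edgeR adjusted p 0.791). The exact permutation p over samples was 0.1, the smallest that 3 libraries against 3 allow. With the library set term the log2 fold change was 0.09.

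Jam2 (Entrez gene 67374, chromosome 16, 84774123 to 84826380) encodes JAM-B, an adhesion molecule of endothelium that is also found on neurons. It was at 58.8, 69.7 and 67.6 CPM with AAV-GFP-GA, against 60.2, 64.6 and 65.1 CPM with AAV-GFP. The AAV-GFP-GA libraries took both the lowest and the highest place. The log2 fold change was 0.05 ± 0.08 (95% interval 0.920-fold to 1.16-fold, edgeR adjusted p 0.912), and the library set term gave 0.0057. Leaving out AAV-GFP-GA replicate 2 gave -0.0027.

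Esam (Entrez gene 69524, chromosome 9, 37528089 to 37538319) encodes an adhesion molecule of endothelial tight junctions and platelets. It was at 12.02, 16.0 and 13.7 CPM with AAV-GFP-GA, against 7.42, 10.6 and 13.5 CPM with AAV-GFP. The AAV-GFP libraries were spread widely, from the lowest of the 6 in replicate 1 to a level inside the AAV-GFP-GA range in replicate 3. Its ratio of highest to lowest library, 2.16, was the largest of the 8 genes. The log2 fold change was the largest of the 8 as well, 0.40 ± 0.19 (95% interval 0.993-fold to 1.77-fold, edgeR adjusted p 0.746). It was 0.63 without AAV-GFP replicate 3 (adjusted p 0.0959 by edgeR), 0.21 without AAV-GFP replicate 1 and 0.04 with the library set term. Without AAV-GFP-GA replicate 2 it was 0.29, and in limma-voom with sample weights 0.57 (adjusted p 0.22 by limma-voom). The estimate of Esam thus moved with which libraries of either group were compared.

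Cdh5 and Pecam1 belong to the lateral contacts outside the tight junction strands. Cdh5 (Entrez gene 12562, chromosome 8, 104101613 to 104144504) encodes VE-cadherin, the cadherin of endothelial adherens junctions. It was at 16.4, 17.3 and 14.2 CPM with AAV-GFP-GA, against 15.6, 12.5 and 13.6 CPM with AAV-GFP. AAV-GFP replicate 1 lay inside the AAV-GFP-GA range, so the groups overlapped. For this cadherin the log2 fold change was 0.20 ± 0.11 (95% interval 0.968-fold to 1.36-fold, edgeR adjusted p 0.751). It was positive under all 14 alternatives, from 0.13 to 0.29, and 0.23 with the library set term.

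Pecam1 (Entrez gene 18613, chromosome 11, 106654213 to 106715281) encodes CD31, a homophilic adhesion molecule of endothelial contacts that is also carried by platelets and leukocytes. It was at 21.1, 24.8 and 22.2 CPM with AAV-GFP-GA, against 18.7, 16.0 and 20.8 CPM with AAV-GFP. All AAV-GFP-GA libraries lay above all AAV-GFP libraries, and AAV-GFP replicate 3 came close to AAV-GFP-GA replicate 1. The log2 fold change was 0.29 ± 0.11 (95% interval 1.04-fold to 1.45-fold). Its unadjusted p was 0.0205 and its adjusted p 0.742 by edgeR, and it ranked 376th of 14324 genes by p. The exact permutation p over samples was 0.1, the smallest possible. The log2 fold change was 0.39 without AAV-GFP replicate 3 (adjusted p 0.0959 by edgeR), 0.20 without AAV-GFP replicate 2 and 0.13 with the library set term. Among the 8, Pecam1 and F11r were the genes whose groups did not overlap, 2 of 8, both higher, where 11.9% of tested genes had groups that did not overlap and 6.09% had groups that did not overlap and were higher.

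**Figure D3:**
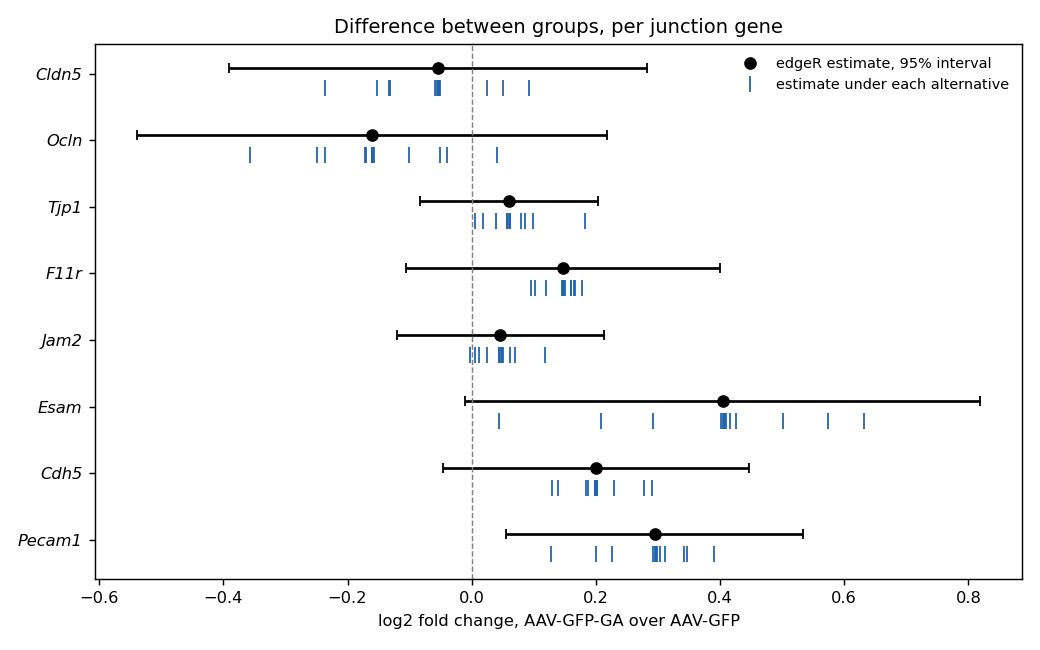
Log2 fold change of each junction gene, AAV-GFP-GA over AAV-GFP (horizontal axis), with its edgeR estimate and 95% interval in black and the estimates under the 14 alternatives as blue ticks below. The interval of Pecam1, from 0.06 to 0.53, is the one that does not cross 0, and the ticks of Cldn5, Ocln and Jam2 lie on both sides of 0.

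The 8 genes did not deviate the same way in every library. As a mean deviation of log2 CPM from each gene's own mean over the 6 libraries, they stood at -0.01, 0.19 and -0.0076 with AAV-GFP-GA, against -0.06, -0.12 and 0.0059 with AAV-GFP. AAV-GFP-GA replicate 2 was high, AAV-GFP replicate 2 low, and the other 4 libraries near 0. AAV-GFP-GA replicate 2 was above the mean for all 8 genes and was the highest library for 5. AAV-GFP replicate 2 was the lowest library for 3 genes, namely Cdh5, Pecam1 and F11r. In AAV-GFP-GA replicate 3, Cldn5 stood at -0.34 while Esam stood at 0.20 and Pecam1 at 0.12. In AAV-GFP replicate 1, Ocln stood at 0.28 and Esam at -0.65. The median log2 fold change of the 8 stayed between 0.07 and 0.14 under the alternatives.

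Ratios between the genes, which do not depend on the scaling of a library, differed between groups without overlap for 2 of the 28 pairs, where 11.8% of all pairs of tested genes did, so the count of pairs is no result about these genes. This pair of ratios was picked with the values already in view. Cldn5 had 0.568, 0.479 and 0.382 reads per Pecam1 read with AAV-GFP-GA, against 0.601, 0.603 and 0.611 with AAV-GFP. The AAV-GFP ratios were close together and the AAV-GFP-GA ratios lower and spread. Pecam1 had 0.358, 0.356 and 0.329 reads per Jam2 read with AAV-GFP-GA, against 0.311, 0.247 and 0.319 with AAV-GFP.

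Other markers of endothelium were all detected, and no marker passed. Of 24 markers, with the junction genes left out, 0 passed by edgeR and 24 had a positive log2 fold change. Of all tested genes 48.6% were positive. By edgeR 8 markers had an unadjusted p under 0.05, where 6.64% of tested genes were under it. Both shares of all tested genes also apply beside the counts of the lists that follow. The median log2 fold change of these markers was 0.20, where that of the junction genes was 0.10, and this difference was not tested. DESeq2 called 1, Flt1, a VEGF receptor, which had a log2 fold change of 0.41 ± 0.08 (adjusted p 0.444 by edgeR). The summed level of the markers was 591, 704 and 641 CPM with AAV-GFP-GA, against 569, 513 and 593 CPM with AAV-GFP. AAV-GFP-GA replicate 2 was highest and AAV-GFP replicate 2 lowest, as for the mean of the junction genes, and AAV-GFP-GA replicate 1 lay just below AAV-GFP replicate 3. AAV-GFP-GA replicate 2 also had the highest mean deviation for some lists outside the vessel, 0.06 for astrocytes, where AAV-GFP-GA replicate 3 was at 0.05, and 0.08 for oligodendrocytes. For neurons it was the lowest library, at -0.02. It was not the highest for leukocytes and platelets, fibroblasts, choroid plexus or intestine. Pericytes and vascular smooth muscle, which surround the endothelium, had summed levels of 278, 328 and 315 CPM with AAV-GFP-GA, against 284, 261 and 284 CPM with AAV-GFP. Of their 14 tested genes 0 passed by edgeR, 11 were positive, 3, all positive, had an unadjusted p under 0.05 and the median was 0.18. Of these, Anpep, an aminopeptidase of pericytes that intestinal epithelium also carries, passed by edgeR without AAV-GFP replicate 3, with a log2 fold change of 1.13 (adjusted p 0.0472). The part of the amount of vessel in the levels of the junction genes was not tested.

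All 24 markers had positive estimates, so a gene without a difference comes out lower in AAV-GFP-GA cortex when it is set against the mean of the markers in the same library. On that scale 1 of the 8 junction genes, Jam2, was lower in all AAV-GFP-GA libraries than in all AAV-GFP libraries, where 34.5% of tested genes were, so this count is no result about the junction genes.

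**Figure D4:**
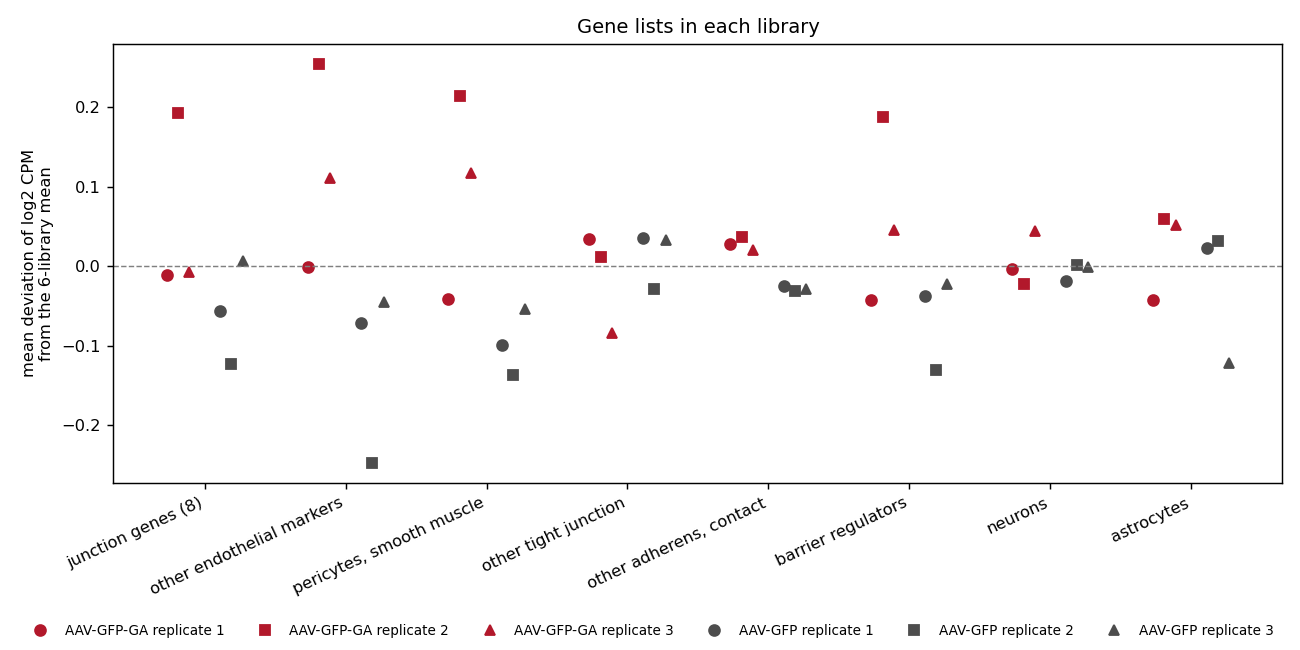
Mean deviation of log2 CPM from the mean over the 6 libraries (vertical axis) for the 8 junction genes and other gene lists, 1 point per library, AAV-GFP-GA in red and AAV-GFP in grey. AAV-GFP-GA replicate 2 (red square) is highest for 6 of the 8 lists drawn, the exceptions being neurons and the other tight junction genes. It stands at 0.19 for the junction genes, 0.25 for the other endothelial markers, 0.21 for pericytes, 0.19 for the barrier regulators, 0.04 for the other adherens genes and 0.06 for astrocytes.

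Among 25 tested genes of other tight junction components, 0 passed by edgeR, 11 were positive and 14 negative, with a median log2 fold change of -0.02, and 1 in each direction had an unadjusted p under 0.05. The list is not confined to endothelium, and its member Cldn11 is also in the oligodendrocyte list. Prkcz, a kinase of the polarity complex, and Ildr2, an angulin-family membrane protein, had the highest levels of the list and log2 fold changes of 0.02 ± 0.07 and 0.07 ± 0.07. Lsr, which encodes angulin-1 of tricellular contacts, had the smallest unadjusted p of the list. It was at 6.56 ± 0.616 CPM in AAV-GFP-GA cortex and 4.54 ± 0.466 CPM in AAV-GFP cortex (SD, n = 3 each), without overlap, with a log2 fold change of 0.53 ± 0.15 (adjusted p 0.742 by edgeR). Cldn3, another claudin, was below the filter, with 8, 10 and 6 reads with AAV-GFP-GA, against 6, 3 and 5 reads with AAV-GFP.

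Among 24 tested genes of other adherens junction and endothelial contact components, 0 passed by edgeR, 15 were positive, the median was 0.06 and 1, positive, had an unadjusted p under 0.05. Their summed level was 1906, 1899 and 1916 CPM with AAV-GFP-GA, against 1871, 1866 and 1840 CPM with AAV-GFP, a small difference without overlap. Of single tested genes 11.9% had groups that did not overlap, and no such share was taken for summed levels. Ctnnb1, which encodes β-catenin, and Ctnnd2, a δ-catenin of neurons, contribute most to that sum and are not confined to endothelium, with log2 fold changes of 0.02 ± 0.05 and 0.07 ± 0.05. Rasip1, an effector of the small GTPase Rap1 in endothelium, was at 9.64 ± 0.765 CPM in AAV-GFP-GA cortex and 6.99 ± 1.80 CPM in AAV-GFP cortex (SD, n = 3 each). Its groups overlapped, with a log2 fold change of 0.46 ± 0.17 (adjusted p 0.742 by edgeR).

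Of 21 genes of barrier-inducing Wnt signalling and other barrier regulators, 0 passed by edgeR, 16 were positive and the median was 0.10. By edgeR 5, all positive, had an unadjusted p under 0.05. Of all tested genes 6.64% were under it and 48.6% were positive. Slc2a1, the glucose transporter of brain endothelium, was at 153 ± 20.5 CPM in AAV-GFP-GA cortex and 110 ± 17.99 CPM in AAV-GFP cortex (SD, n = 3 each). Its log2 fold change was 0.48 ± 0.12 by edgeR, and its adjusted p was 0.742 by edgeR and 0.0235 by DESeq2. AAV-GFP replicates 1 and 2 were at 95.3 and 104.7 CPM. AAV-GFP replicate 3, at 130.1 CPM, came close to AAV-GFP-GA replicate 1, at 130.9 CPM. Without AAV-GFP replicate 3 the log2 fold change of Slc2a1 was 0.62 (adjusted p 0.0472 by edgeR). Over all the lists, DESeq2 called Flt1 and Slc2a1 and limma-voom called 0 genes. Lrp6, a Wnt co-receptor, had a log2 fold change of -0.0030 ± 0.07. Of 8 tested endothelial inflammatory adhesion molecules 0 passed by edgeR, 4 were positive and 4 negative, with a median of 0.0010, and 2, both positive, had an unadjusted p under 0.05. Selplg, the ligand of P-selectin on leukocytes and microglia, had a log2 fold change of 0.34 ± 0.09 (adjusted p 0.742 by edgeR). Selp, which encodes P-selectin, had 0 reads in all 6 libraries.

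In lists of other cell types that could carry some of these transcripts, 0 genes passed by edgeR. The median log2 fold change was -0.81 over 10 choroid plexus genes, all negative, and 0.76 over 11 tested intestinal epithelium genes, 10 of them positive. It was 0.02 over 10 genes of meningeal and perivascular fibroblasts and -0.05 over 6 of leukocytes and platelets. It was 0.03 over 10 astrocyte genes, 0.01 over 10 oligodendrocyte genes and 0.02 over 10 neuron genes. The summed choroid plexus level was lowest in AAV-GFP-GA replicate 3 (84.6 CPM) and highest in AAV-GFP replicate 1 (1207 CPM), and the groups overlapped. The 10 choroid plexus genes are thus not independent of each other. At an unadjusted p under 0.05 there were 3 intestinal, 2 fibroblast and 1 neuron gene, all higher, 1 choroid plexus and 1 oligodendrocyte gene, both lower, and 0 leukocyte, platelet or astrocyte genes. Without AAV-GFP replicate 3, the intestinal genes Apoa1, Fabp2 and Vil1 passed by edgeR, with adjusted p-values of 0.0128, 0.0477 and 0.0472. Of platelet markers, Itga2b was at 0.781 ± 0.173 CPM in AAV-GFP-GA cortex and 1.005 ± 0.0203 CPM in AAV-GFP cortex (SD, n = 3 each), and Gp9 had at most 10 reads in a library. Epithelial F11r and Ocln transcripts from choroid plexus or intestine cannot be separated from those of endothelium here, and their part was not tested.

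By the root mean square difference of centred log2 CPM over the 6 libraries, the genes closest to the mean of the 8 junction genes, among 10010 genes with a mean of at least 10 CPM, were Hrh2 (0.0132), Ctnna1 (0.0196), Rpp25 (0.0283), Heg1 (0.0320) and Lgi4 (0.0323). Ctnna1 was at 81.1 CPM in AAV-GFP-GA cortex and 75.0 CPM in AAV-GFP cortex, with a log2 fold change of 0.11 ± 0.07 (adjusted p 0.753 by edgeR). Heg1 was at 34.8 CPM in AAV-GFP-GA cortex and 31.6 CPM in AAV-GFP cortex, with a log2 fold change of 0.14 ± 0.09. Ctnna1 and Heg1 are also in the list of other adherens junction and endothelial contact components, and the others of the 5 are not. Hrh2, Rpp25 and Lgi4 had log2 fold changes of 0.14 ± 0.09, 0.10 ± 0.10 and 0.16 ± 0.09. AAV-GFP-GA replicate 2 was highest for all 5 and AAV-GFP replicate 2 lowest. This follows from the choice of the 5 by likeness to the mean of the junction genes over these same libraries, so it is no separate result.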

How the data were processed

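RNA of mouse cortex was sequenced in 3 libraries per group; RNA was extracted with Trizol and libraries followed the provider's standard method (per the labels' protocols). Bowtie2 2.2.5, RSEM 1.2.12 and the build mm10 stand in the submitters' processing notes, without role or order. The deposited table holds expected counts per gene with no scaling to depth, read as such from the values, since 7.32% to 7.81% of entries in a library were not whole. The annotation and strand setting used are not stated there. Values of the 8 junction genes were whole in all 48 entries, and their exons share 0 bases with exons of other genes in GENCODE M21.

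Expected counts were rounded. The row naming no gene (1) was left out and 25 date-like symbols were restored. Genes were kept by filterByExpr, libraries scaled by TMM (factors 0.991 to 1.01) and groups compared with edgeR 4.0.16 (R 4.3.3), quasi-likelihood, two-sided, Benjamini-Hochberg over all tested genes at 0.05, with standard errors derived from the F statistic. Scripts were tested on simulated data. Log2 CPM used an added 0.5. Alternatives used DESeq2 1.42.0, limma 3.58.1, other scaling and filters, a replicate block, a library set term and leaving out each library. The members and the 13 other lists were chosen with earlier results of these data known. Some lists share genes, such as Lsr, Sox17 and Ptprb, which count in each, so the lists are not independent of each other. Of each list the members past the threshold were to be named, else the 2 most expressed and the one with the smallest p, and values are printed for lists of vessel and junction. Klf2 and Klf4, and Cldn3, Selp and Gp9, which had few or 0 reads, were named after their values were seen.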

Additional observations from a re-analysis of the deposited data

How the results depend on the processing

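No junction gene passed under any of the 14 alternatives, and 107 of 112 estimates kept their sign. The 5 that turned were small. Cldn5 was at 0.024 in limma-voom with sample weights and between -0.15 and 0.093 when single libraries were left out. Ocln was at 0.042 with the library set term, and Jam2 was between -0.0027 and 0.12 when single libraries were left out. The lowest estimate of Cldn5, -0.24, came with the library set term. The lowest adjusted p of any junction gene was 0.0959, for Pecam1 and Esam without AAV-GFP replicate 3, the library with 1 Y-linked read. The count of changed genes over the whole table, 3 with edgeR, was 10 with DESeq2 and 9 with the library set term, and from 2 to 72 when single libraries were left out, the highest without AAV-GFP replicate 3. With the replicate number as a block it was 2, and 0 junction genes passed. Deviations of same-numbered libraries had correlations of 0.07, -0.06 and 0.02 across genes, and 0 of 6 libraries correlated best with their own number. These values show no pairing by number, but so few libraries per group cannot exclude a weak one. The cause of the changes in the count of changed genes was not tested. The 6 genes other than Tjp1 and Jam2 rested on 110 to 440 reads per library. The 95% intervals printed for each gene, widest for Esam, give the changes that depth and spread leave possible in the main edgeR fit.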
